A study of Mus musculus with 12 samples.

Results

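Laminins are trimers of an alpha, a beta and a gamma chain that polymerise into the sheet of the basement membrane, the thin matrix that endothelium, epithelium, muscle and Schwann cells rest on. Nidogens tie that sheet to the collagen IV network, and the heparan sulfate proteoglycans perlecan and agrin bind both the sheet and cell surface receptors. In lymphatic vessels the basement membrane is known to be thin and interrupted around capillaries and continuous around collecting vessels, whereas fibroblasts, mural cells and blood endothelium make much of it in the meninges. Described here are 10 genes of this matrix, of 23238 gene symbols in the files, chosen by symbol: the laminin chains Lama2, Lama4, Lama5, Lamb1, Lamb2 and Lamc1, the nidogens Nid1 and Nid2, Hspg2 (perlecan) and Agrn (agrin). Each symbol had a row in all 12 files.

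The libraries came from the meninges of mice aged 20 weeks. Cells described by the submitters as meningeal lymphatic endothelium were enriched with magnetic beads from 3 to 4 mice of each strain, and RNA went into a Lexogen QuantSeq kit, which reads transcripts near one end. By title there were 4 libraries each of AD_TG, AD_B6 and SJL_B6. The labels give C57BL/6 as the strain of every sample and do not spell out the title abbreviations; the series title concerns DSCR1 upregulation and the amyloid pathology of Alzheimer's disease. They do not say which promoter drives a transgene, and do not state that the replicates were separate mice, so p-values measure the spread between these samples, which may be technical.

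Estimated depth was 4157800 to 9307807 assigned reads in AD_TG, 5481847 to 8911496 in AD_B6 and 4022407 to 9296286 in SJL_B6. No library repeated another, and the correlation across genes between libraries was 0.403 to 0.517 (Pearson). Genes with reads numbered 11019 to 12018 in AD_TG, 8748 to 11449 in AD_B6 and 10860 to 12217 in SJL_B6, and AD_B6 replicate 3 had the fewest. The markers of the labelled cell type were mixed: Nr2f2, Pdpn, Nrp2 and Foxc2 had reads in all 12 libraries, at means of 10.25, 9.31, 9.16 and 8.77 (log2), and Lyve1 in 11 (7.91), while Itga9 and Ccl21a had reads in 9 each, Flt4 in 6 and Reln in 4. Prox1, the lymphatic master regulator, had reads in none of the AD_TG or AD_B6 libraries and in 2 SJL_B6 libraries. The 10 lymphatic markers summed to 0.0482 to 0.0561% of AD_TG, 0.0433 to 0.0688% of AD_B6 and 0.0582 to 0.0764% of SJL_B6 libraries. The 10 meningeal fibroblast markers made up 0.162 to 0.698% of AD_TG, 0.197 to 0.901% of AD_B6 and 0.212 to 0.463% of SJL_B6 libraries, and the 7 choroid plexus markers 1.64 to 6.48% of AD_TG, 0.324 to 8.67% of AD_B6 and 0.236 to 5.31% of SJL_B6 libraries. Over all libraries, macrophage markers summed to 0.221 to 0.630%, pan-endothelial markers to 0.00907 to 0.0344%, mural markers to 0.00875 to 0.0579%, astrocyte markers to 0.0116 to 0.0369%, markers of Schwann cells and oligodendrocytes to 0.00522 to 0.0454% and neuronal markers to 0.0145 to 0.116%, with Mog and Rbfox3 listed at 0 throughout. Rcan1, the mouse gene of DSCR1, stood at 7.75 ± 1.16 in AD_TG, 8.79 ± 1.04 in AD_B6 and 7.40 ± 1.65 in SJL_B6 (log2, SD, n = 4 each). Its difference between AD_TG and AD_B6 was -1.04 (95% interval -3.18 to 1.10; limma, adjusted p = 0.903). The labels do not say whether a transgene would carry the transcript end that is read, so this does not check them.

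Values below are the deposited log2 values unless another unit is named, where log2 means log2(linear amount + 1). A linear value below 0.3, which is less than 1 read is worth in any library, is called no reads, and values of 1 to 3 reads count as having reads. Apart from that cutoff, a gene without reads in a library may still have a level worth up to 3 reads. That is a log2 value of 1.63 to 2.65 depending on the library. In a bulk sample, fewer cells of a type and less RNA per cell cannot be told apart.

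Sequences around the transcript starts of 3 of the genes are shown because these genes stood for the patterns found here: Hspg2 was the most even member, Lamb2 was present in all libraries and Lamb1, its counterpart, was present in some and missing in others. They are RefSeq sequences of build GRCm38.p6, 250 bases before to 50 bases after the annotated start, on the plus strand, written 5′ to 3′. Capitals mark the GC box, GGGCGG or its reverse complement CCGCCC, so that both strands were searched. The Hspg2 window lies at chr4:137468553-137468852, the Lamb1 window at chr12:31265043-31265342 and the Lamb2 window at chr9:108479612-108479911.
Hspg2: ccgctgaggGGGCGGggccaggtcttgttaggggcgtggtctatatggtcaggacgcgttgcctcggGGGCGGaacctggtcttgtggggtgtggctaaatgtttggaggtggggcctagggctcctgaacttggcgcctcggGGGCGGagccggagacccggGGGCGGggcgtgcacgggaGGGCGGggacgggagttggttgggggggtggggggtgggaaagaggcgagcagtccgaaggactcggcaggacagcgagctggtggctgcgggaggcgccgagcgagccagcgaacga
Lamb1: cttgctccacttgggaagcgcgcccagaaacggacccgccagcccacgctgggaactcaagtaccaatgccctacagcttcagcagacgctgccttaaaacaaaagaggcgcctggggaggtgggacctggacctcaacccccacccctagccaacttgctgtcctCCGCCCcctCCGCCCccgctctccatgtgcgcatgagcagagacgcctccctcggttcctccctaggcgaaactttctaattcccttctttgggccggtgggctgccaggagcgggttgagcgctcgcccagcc
Lamb2: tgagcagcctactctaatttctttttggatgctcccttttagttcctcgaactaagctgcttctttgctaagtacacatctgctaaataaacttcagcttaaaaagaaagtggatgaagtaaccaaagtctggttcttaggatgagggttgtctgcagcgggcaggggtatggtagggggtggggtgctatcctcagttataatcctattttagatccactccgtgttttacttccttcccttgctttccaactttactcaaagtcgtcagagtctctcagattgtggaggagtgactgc
The Hspg2 window held 5 GC boxes at 70.3% G and C, the Lamb1 window 2 at 63.7% and the Lamb2 window 0 at 44.0%. Of all 32851 windows of this length in the table, 35.7% held at least 1 GC box, and 13.6% held TATAAA, the other motif searched, on either strand. The table matched 7 of the 10 genes, with 8 windows, of which 7 held a GC box and 0 held TATAAA. These matches describe the letters only.

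The 120 values of the 10 genes fell mostly into a high band, with few between it and zero. Of them, 95 lay at a log2 value of 6 to under 10 and 6 at 10 or more, 3 lay at 5 to under 6, 8 had reads but lay below 5, and 8 had no reads. The values without reads numbered 1 of 40 in AD_TG, 3 of 40 in AD_B6 and 4 of 40 in SJL_B6. Over all 11955 genes tested, 12.9% of AD_TG values, 21.6% of AD_B6 values and 14.3% of SJL_B6 values had no reads. Lamb2, Lamc1, Nid1, Nid2, Hspg2 and Agrn had reads in all 12 libraries, and every missing value belonged to an alpha chain or to Lamb1. Together the 10 genes made up 0.0444 to 0.0788% of the linear total in AD_TG, 0.0380 to 0.0719% in AD_B6 and 0.0461 to 0.0620% in SJL_B6.

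**Figure D1:**
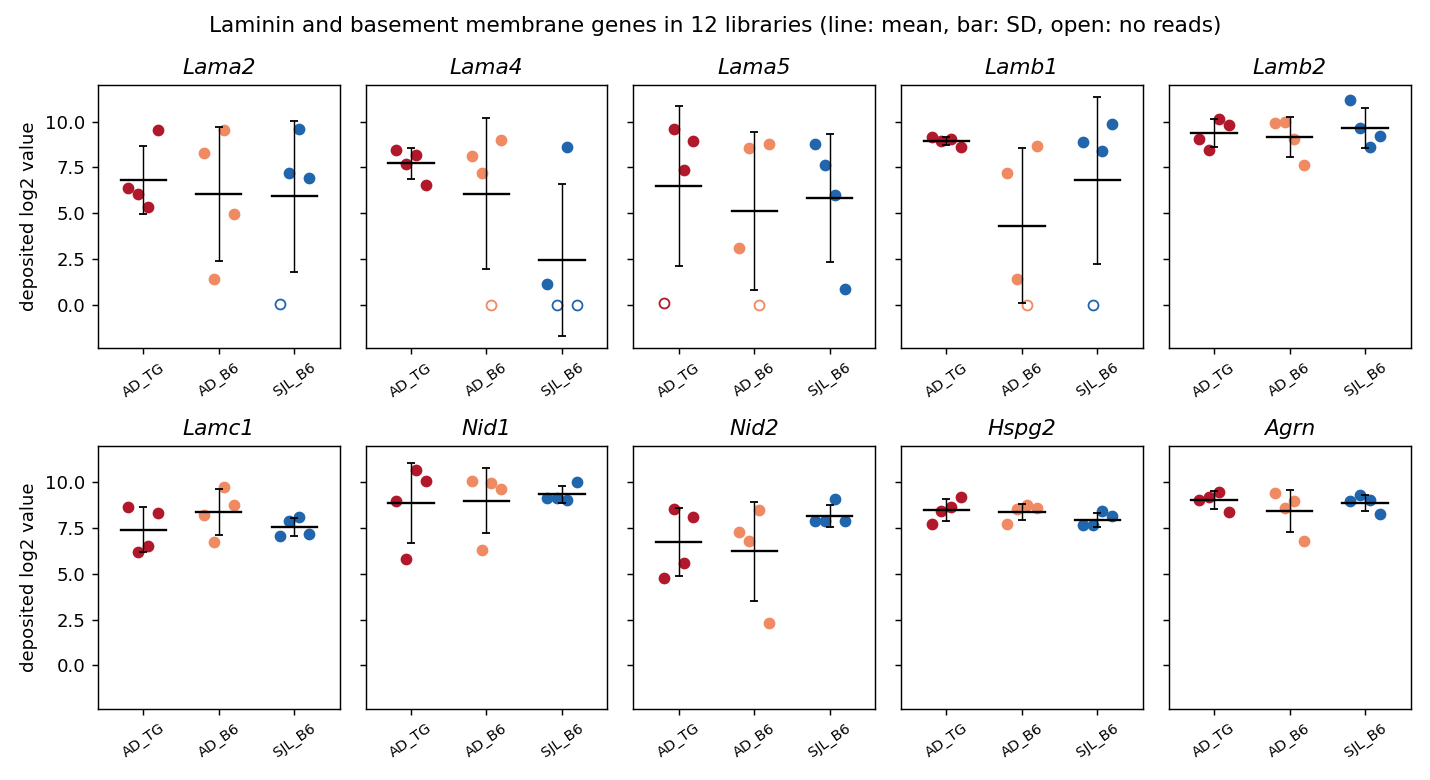
Deposited log2 value (y axis) of each of the 10 genes in the 12 libraries, by group (x axis), with each library as a point, open where it had no reads, and with the mean as a line and the SD as a bar. Lama2, Lama4, Lama5 and Lamb1 have open points at 0 beside points near 8, whereas the other genes have reads in every library.

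The alpha chains, which carry the receptor-binding part of a laminin, were uneven over the libraries. Lama2 encodes alpha 2, the chain of muscle, Schwann cell and brain-side basement membranes, which is lost in a congenital muscular dystrophy. Its values were 6.35, 6.05, 5.33 and 9.55 in AD_TG, then 8.30, 1.41, 9.57 and 4.96 in AD_B6, and 0.02, 7.18, 9.61 and 6.91 in SJL_B6. Each group thus held 1 library near 9.6, and SJL_B6 replicate 1 had no reads.

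Lama4 encodes alpha 4, a chain of vascular endothelial basement membranes. It stood at 8.47, 7.69, 8.19 and 6.52 in AD_TG, 8.12, 7.20, 0 and 8.98 in AD_B6, and 1.14, 0, 8.60 and 0 in SJL_B6. All AD_TG libraries and 3 AD_B6 libraries were thus in the high band, against 1 SJL_B6 library, which was higher than every AD_TG library. In reads, the AD_TG libraries had about 202, 265, 283 and 111, and the SJL_B6 libraries about 1, 0, 224 and 0.

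Lama5 encodes alpha 5, which is found under endothelium and epithelium. It stood at 0.07, 9.61, 7.37 and 8.94 in AD_TG, 3.09, 8.55, 0 and 8.79 in AD_B6, and 8.80, 7.64, 6.01 and 0.88 in SJL_B6. Each group held libraries in the high band and 1 library with at most 1 read.

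Of the beta chains, Lamb2 is the one named for synapses and the kidney filter, and Lamb1 is the widespread form. Lamb1 stood at 9.19, 8.96, 9.04 and 8.64 in AD_TG, 7.18, 1.41, 0 and 8.65 in AD_B6, and 8.91, 0, 8.39 and 9.86 in SJL_B6. The 4 AD_TG libraries lay close together, while AD_B6 reached from no reads up to 8.65, just above the lowest AD_TG value. Lamb2 stood at 9.06, 8.45, 10.17 and 9.80 in AD_TG, 9.95, 9.96, 9.08 and 7.65 in AD_B6, and 11.18, 9.66, 8.63 and 9.24 in SJL_B6. Its groups overlapped throughout.

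Lamc1 encodes gamma 1, the gamma chain of most laminins and the one that nidogen binds. It stood at 8.67, 6.18, 6.53 and 8.32 in AD_TG, 8.20, 6.74, 9.76 and 8.78 in AD_B6, and 7.06, 7.87, 8.12 and 7.21 in SJL_B6. It averaged 7.43 ± 1.25 in AD_TG, 8.37 ± 1.26 in AD_B6 and 7.57 ± 0.51 in SJL_B6 (SD, n = 4), with overlapping groups.

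Nid1 and Nid2 encode the nidogens that link laminin to collagen IV. Nid1 stood at 9.00, 5.79, 10.68 and 10.08 in AD_TG, 10.08, 6.33, 9.96 and 9.64 in AD_B6, and 9.15, 9.15, 9.06 and 10.01 in SJL_B6. Replicate 2 was the low library in both AD_TG and AD_B6, and SJL_B6 had no low library. Nid2 stood at 4.77, 8.53, 5.60 and 8.11 in AD_TG, 7.32, 6.82, 8.50 and 2.31 in AD_B6, and 7.87, 7.87, 9.07 and 7.88 in SJL_B6. Its SJL_B6 values again held no low library, although the highest AD_TG and AD_B6 libraries reached into that range.

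Perlecan was the most even of the 10 genes. Hspg2 stood at 7.74, 8.42, 8.66 and 9.20 in AD_TG, 7.75, 8.53, 8.75 and 8.58 in AD_B6, and 7.65, 7.66, 8.42 and 8.14 in SJL_B6. Agrn, known for gathering acetylcholine receptors at the nerve-muscle synapse, stood at 9.05, 9.23, 9.49 and 8.39 in AD_TG, 9.41, 8.58, 9.01 and 6.79 in AD_B6, and 8.97, 9.32, 9.03 and 8.29 in SJL_B6. Apart from AD_B6 replicate 4, all its libraries lay at 8.29 or more.

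The spread of each gene was set beside that of genes with a like mean (within 0.5), as a description. Over the 12 libraries Hspg2 had an SD of 0.50, where the 1541 genes of like mean had a median SD of 1.34 and 0.649% of them had a lower one. Lamb1, with an SD of 3.81 against a median of 2.70, stood at the other end, since 98.3% of 1517 genes of like mean had a lower SD. For Lama4, Lama5 and Lama2 these shares were 92.2%, 91.9% and 58.7%. Detection in every library did not go with an even level throughout: the share was 87.2% for Nid1 and 56.7% for Lamb2, and 19.9%, 14.7% and 12.1% for Nid2, Agrn and Lamc1.

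**Figure D2:**
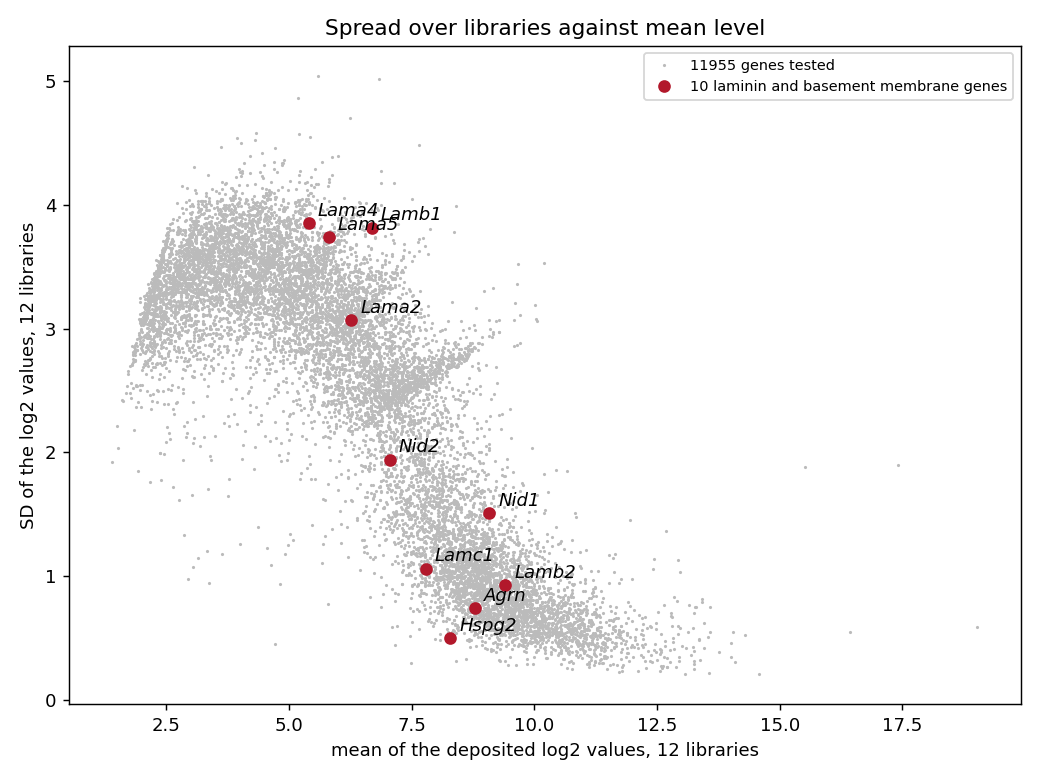
SD over the 12 libraries (y axis) against mean log2 value (x axis), with each of the 11955 genes tested as a grey point and the 10 genes as red points. Hspg2, with an SD of 0.50, sits at the lower edge of the cloud and Lamb1, with 3.81, at its upper edge.

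Levels were compared between genes per kilobase of coding length in GENCODE vM21. By the median over the 12 libraries the order on this scale was Nid1 (183 linear units per kilobase), Lamb2 (131), Agrn (85.1), Lamb1 (72.7), Nid2 (55.5), Lamc1 (53.1), Lama4 (32.3), Hspg2 (26.0), Lama5 (16.3) and Lama2 (10.7). For each pair of neighbours in this order, the SD of their difference over the libraries exceeded its mean, and the order of the pair changed between libraries. This describes the spread of single libraries and does not test the mean difference. Nid1 was above Lamb2 in 9 of 12 libraries, with a mean difference of 48.6 and an SD of 150.5 units per kilobase, and Lamb2 above Agrn in 10 of 12, with a mean difference of 71.3 and an SD of 99.97. A kit that reads transcript ends may need no division by length; by undivided medians the order was Lamb2, Nid1, Agrn, Lamb1, Hspg2, Lamc1, Nid2, Lama5, Lama4 and Lama2.

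The beta chains together were the largest laminin class in 9 of 12 libraries on the per-kilobase scale, including all 4 of AD_TG, 2 of AD_B6 and 3 of SJL_B6. Lamc1 was below both other classes in 8 libraries. Lamb2 exceeded Lamb1 in 2 AD_TG, 3 AD_B6 and 3 SJL_B6 libraries. The leading alpha chain changed from library to library: Lama2, Lama4 and Lama5 led in 4 libraries each. Lama4 led in 2 AD_TG, 2 AD_B6 and 0 SJL_B6 libraries, with a share of the 3 alpha chains of 88.3% in AD_TG replicate 1 and 73.8% in AD_TG replicate 3. In SJL_B6 replicate 1, Lama5 took 99.4% and in SJL_B6 replicate 4, Lama2 took 99.4%. Without the division by length, Lama2, Lama4 and Lama5 led in 5, 3 and 4 libraries. In AD_TG replicates 2 and 4 the summed alpha chains then exceeded the summed beta chains, so the lead of the beta chains there rests on the division. Nid1 exceeded Nid2 per kilobase in 3 AD_TG, 3 AD_B6 and 4 SJL_B6 libraries.

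**Figure D3:**
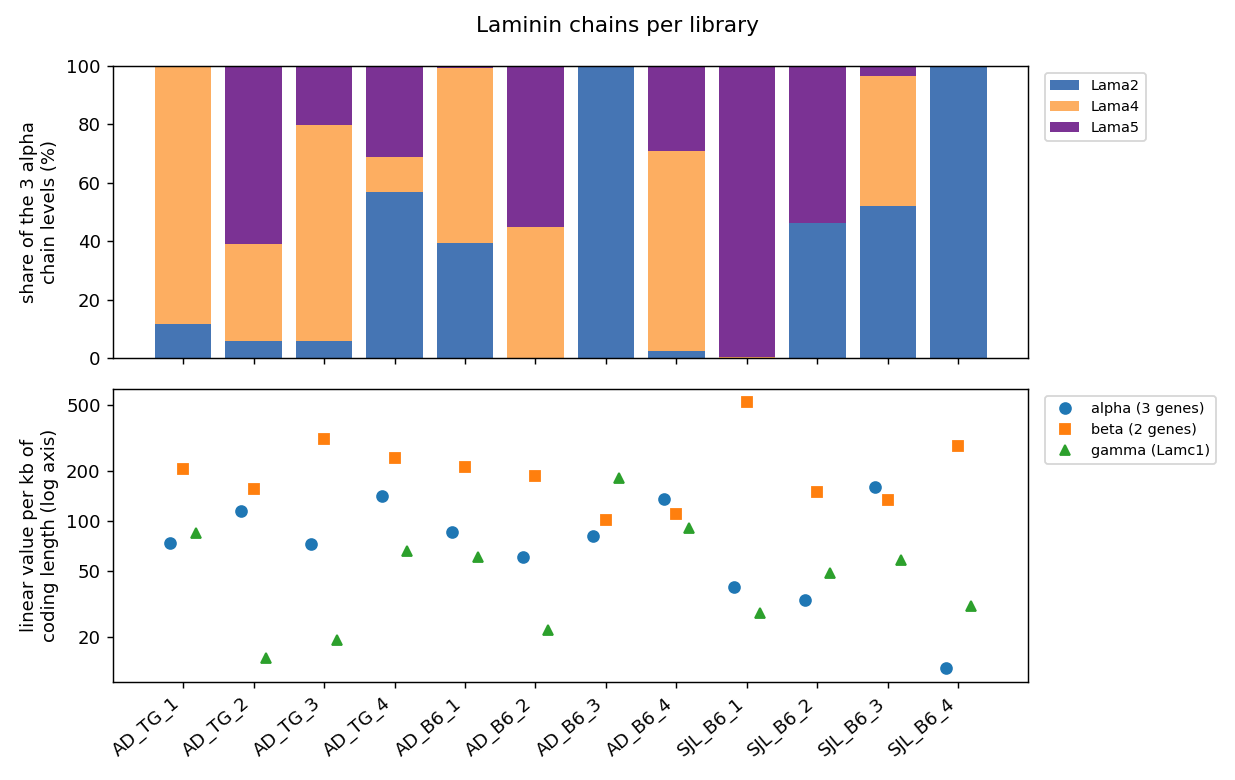
Upper plot: share in percent of Lama2, Lama4 and Lama5 in their summed per-kilobase level, for each of the 12 libraries. Lower plot: linear value per kilobase of coding length, on a log axis, of the summed alpha chains, the summed beta chains and Lamc1. The alpha chain with the largest share differs between libraries of 1 group, and on this per-kilobase scale the beta chains are the highest class in 9 of 12 libraries.

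The 10 genes did not move as a block over the libraries. Spearman's rho over the 12 libraries was above 0 in 22 of the 45 pairs and below 0 in 22, with a median of 0, given here as a description of libraries that share depth and cell makeup. The highest was Lama2 with Nid2 at 0.61, and the 2 nidogens stood at -0.16. Of the 4950 genes detected in each of the 12 libraries, the one ranked most like Hspg2 was Sesn1 (rho 0.86), most like Lamb2 was Smarcd2 (0.89) and most like Lamc1 was Ccser2 (0.90). For Nid1 it was Hist2h2be (0.88), for Nid2 Eif1b (0.90) and for Agrn Ubn2 (0.86).

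The titles of AD_TG and AD_B6 differ in TG in place of B6, and what these stand for is not given in the labels. None of the 10 genes passed limma with Benjamini-Hochberg adjustment over 11955 genes, in which 0 genes (0%) passed. Lamb1 had the largest difference, 8.96 ± 0.23 in AD_TG against 4.31 ± 4.24 in AD_B6 (SD, n = 4), or 4.65 (SE 2.06, 95% interval 0.39 to 8.91). Its adjusted p in limma was 0.871 and its unadjusted p 0.0336. The exact permutation test gave 0.0571 (adjusted 0.971 over 30 tests, where a single gene could not pass with 4 against 4 libraries). The difference rests on AD_B6 replicates 2 and 3, with about 2 and 0 reads, so its size depends on the constant added before the log and came to 3.28 with 10 in place of 1. AD_B6 was the group with the most values without reads over all genes, 21.6%, and 6 of the 7 choroid plexus markers were higher in AD_TG than in AD_B6 (median difference 1.18). Over the 12 libraries the rho of Lamb1 with the mean log2 value of the choroid plexus markers was 0.52, a description. It was the highest rho of Lamb1 with any of the marker lists, and that with the lymphatic markers was 0.49. In all, 90 pairs of a gene and a marker list were computed. The part of the missing reads or of these markers in the result was not tested.

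Lama4 and Lama5 differed by 1.64 (SE 2.41) and 1.39 (SE 2.48) between AD_TG and AD_B6, with 95% intervals of -3.33 to 6.61 and -3.73 to 6.51. For the genes with reads in all libraries the intervals were narrower: Hspg2 differed by 0.10 (-1.57 to 1.78), Lamb2 by 0.21 (-1.23 to 1.64) and Agrn by 0.59 (-0.94 to 2.12). Nid1 differed by -0.12 (-2.04 to 1.81), Lamc1 by -0.95 (-3.09 to 1.20) and Nid2, with the widest interval of these, by 0.51 (-2.50 to 3.53). In total 8 of the 10 differences were above 0, with a median of 0.55, where 62.8% of all genes tested had a difference above 0 and the median was 0.41. The median over all genes moved to -0.22 after each library was centred on its mean, and the differences of Lamb2, Nid2, Hspg2 and Agrn were then below 0. At an unadjusted p below 0.05 there was 1 gene of the 10, where 5.35% of all genes tested, 639 in number, reached it, 519 higher and 120 lower in AD_TG. After the same centring this split was 232 higher and 519 lower. The groups overlapped for all 10 genes; they did not overlap for 2.88% of all genes tested.

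The titles of AD_TG and SJL_B6 differ in both labels, whose parts cannot be told apart. Here limma passed 0 genes (0%), and 357 (2.99%) had an unadjusted p below 0.05. Lama4 had the largest difference, with 7.72 ± 0.86 in AD_TG against 2.43 ± 4.14 in SJL_B6 (SD, n = 4), or 5.29 (SE 2.41, 95% interval 0.32 to 10.25). The unadjusted p of limma was 0.0381, the adjusted p 0.999, and the exact permutation p 0.143 (adjusted 0.971 over 30 tests). It rests on 3 SJL_B6 libraries with at most 1 read and came to 3.10 with a constant of 10. All 7 choroid plexus markers were higher in AD_TG than in SJL_B6 (median difference 1.05, beside 0.08 over all genes tested). The astrocyte list had a median of 1.08, with 4 higher and 2 lower, and the other marker lists had medians of -0.50 to 0.01. The rho of Lama4 with the mean log2 value of the choroid plexus markers over the 12 libraries was 0.56, a description. It was the highest rho of Lama4 with any of the marker lists. The part of these markers in the result was not tested. Lamb1 differed by 2.17 (SE 2.06) and Nid2 by -1.43 (SE 1.46), which came to -0.77 without AD_TG replicate 1. The remaining genes detected in every library differed by -0.46 (Nid1) to 0.54 (Hspg2), and 6 of the 10 differences were above 0 (median 0.34), beside 53.3% of all genes tested (median 0.08). No gene of the 10 had groups that did not overlap, beside 2.53% of all genes tested.

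The titles of AD_B6 and SJL_B6 differ in AD in place of SJL. The calls were again 0 (0%), with 647 genes (5.41%) at an unadjusted p below 0.05 and none of the 10 among them. Lama4 stood at 6.08 ± 4.11 in AD_B6 against 2.43 ± 4.14 in SJL_B6, a difference of 3.64 (SE 2.41), and Lamb1 at 4.31 ± 4.24 against 6.79 ± 4.57, a difference of -2.48 (SE 2.06). Nid2 stood at 6.24 ± 2.71 against 8.18 ± 0.60 (SD, n = 4), a difference of -1.94 (95% interval -4.96 to 1.08). Single libraries moved these sizes: Lama4 came to 5.70 without SJL_B6 replicate 3, Lamb1 to -1.04 without AD_B6 replicate 3 and -4.74 without SJL_B6 replicate 2, and Nid2 to -0.63 without AD_B6 replicate 4. Hspg2 differed by 0.43 (-1.24 to 2.11), Agrn by -0.45 (-1.98 to 1.07) and Lamb2 by -0.51 (-1.95 to 0.92). In all, 4 of the 10 differences were above 0 (median -0.40), beside 40.2% of all genes tested (median -0.31, and 0.16 after centring). None of the 10 had groups that did not overlap, beside 2.82% of all genes tested. The 3 comparisons share groups, so their differences are not independent of each other.

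**Figure D4:**
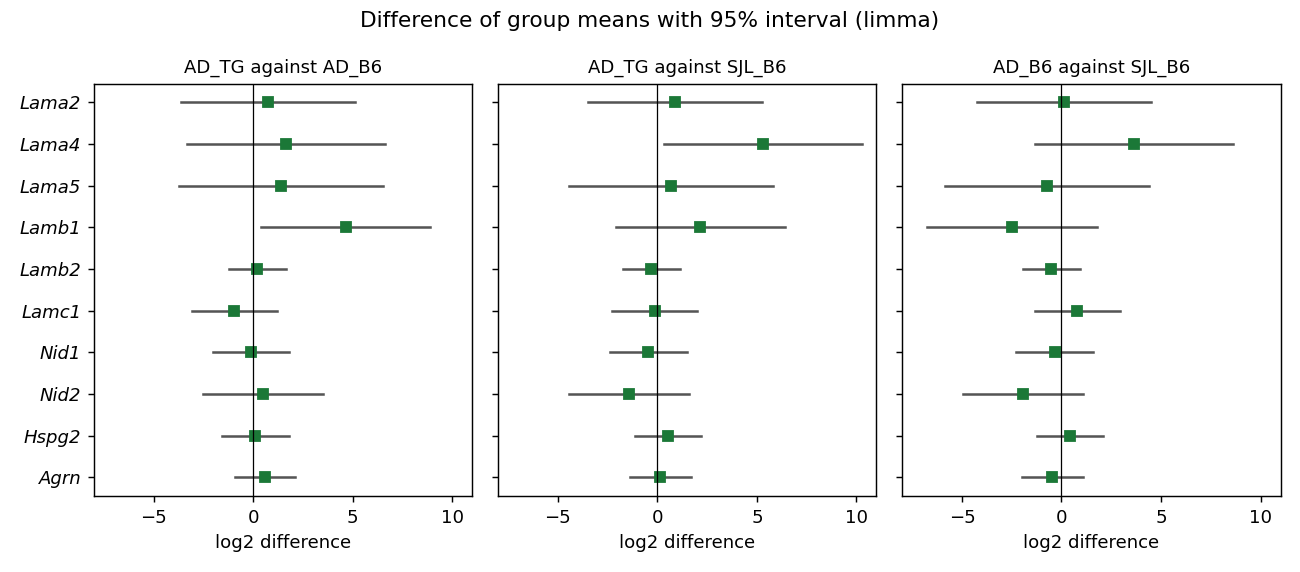
Difference of group means in log2 units (x axis) for each of the 10 genes (y axis) in the 3 comparisons, as squares with the 95% interval of limma as a line. The intervals of Lamb1 for AD_TG against AD_B6 and of Lama4 for AD_TG against SJL_B6 lie above 0, and all others cover 0.

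Other laminin chains were at or near zero in most libraries. Lama1 was listed at 0 in all 12 libraries, and Lama3, Lamb3 and Lamc3, chains of specialised basement membranes, had reads in 4, 6 and 3 libraries. Lamb3 reached 8.83 in SJL_B6 replicate 1, and Lamc3 reached 8.04 in AD_B6 replicate 1. None of these genes had enough reads to be tested.

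Of 13 collagens and related carriers of the basement membrane, 11 were tested, and 7 were higher and 4 lower in AD_TG than in AD_B6 (median 0.16). Against SJL_B6, 5 were higher and 6 lower in AD_TG (-0.11), and 3 were higher and 8 lower in AD_B6 (-0.60). The medians over all genes tested were 0.41, 0.08 and -0.31 in these comparisons, for this and the following lists. None was called. Col4a1 and Col4a2 encode the chains of the main collagen IV network. Col4a1 stood at 8.49 ± 0.86 in AD_TG, 6.17 ± 4.20 in AD_B6 and 8.72 ± 0.72 in SJL_B6, while Col4a2 stood at 8.98 ± 0.89 in AD_TG, 9.66 ± 0.42 in AD_B6 and 6.94 ± 3.75 in SJL_B6 (SD, n = 4). Col4a1 had no reads in 1 AD_B6 library and Col4a2 was at 1.42 in 1 SJL_B6 library, so the 2 partners were low in different groups. Col6a1 and Col6a2, chains of the microfibrillar collagen VI, were the most abundant of the list, at 10.74 ± 0.69 and 10.72 ± 0.73 (SD, n = 12).

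Of 22 linker and matricellular genes, 19 were tested, and 13 were higher in AD_TG than in AD_B6 (median 0.38), 7 higher in AD_TG than in SJL_B6 (-0.29) and 5 higher in AD_B6 than in SJL_B6 (-0.35), with none called. Sparc, a collagen-binding matrix protein, was high and even, at 12.61 ± 0.25 in AD_TG, 12.55 ± 0.37 in AD_B6 and 12.66 ± 0.18 in SJL_B6 (SD, n = 4). Egfl7, an endothelial matrix protein, stood at 8.04 ± 0.73 in AD_TG, 4.27 ± 4.31 in AD_B6 and 8.47 ± 0.67 in SJL_B6, with the smallest p of the list for AD_TG against AD_B6 (limma, adjusted p = 0.871) and for AD_B6 against SJL_B6 (adjusted p = 0.869). Fras1, a protein of the basement membrane beneath embryonic skin, stood at 9.32 ± 0.30 in AD_TG against 4.48 ± 4.60 in SJL_B6 (adjusted p = 0.999).

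Of 18 receptors of laminins, perlecan and agrin, 14 were tested and none was called. Dag1, which encodes dystroglycan, the receptor that laminin, perlecan and agrin share, was even at 10.62 ± 0.40 in AD_TG, 10.75 ± 0.21 in AD_B6 and 10.64 ± 0.15 in SJL_B6 (SD, n = 4). Itga9, an integrin alpha subunit that is also a lymphatic marker, stood at 6.75 ± 1.34 in AD_TG, 1.24 ± 2.46 in AD_B6, where 1 of 4 libraries had reads, and 6.60 ± 2.26 in SJL_B6 (limma, adjusted p = 0.871 for AD_TG against AD_B6 and 0.869 for AD_B6 against SJL_B6). Itgb1, the beta subunit of most laminin-binding integrins, stood at 10.85 ± 0.47 in AD_TG, 10.21 ± 0.74 in AD_B6 and 11.02 ± 0.55 in SJL_B6. Counted by direction, 10 of the 14 were higher in AD_TG than in AD_B6 (median 0.86), 8 were higher in AD_TG than in SJL_B6 (0.08) and 3 were higher in AD_B6 than in SJL_B6 (-0.87). Musk, the kinase through which agrin acts at the nerve-muscle synapse, and Sgca were listed at 0 in all libraries.

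Among genes of assembly and modification, 18 were tested. In this list 6 were higher and 12 lower in AD_TG than in AD_B6 (median -0.86, beside 0.41 over all genes tested), and 12 were higher and 6 lower in AD_B6 than in SJL_B6 (0.63, beside -0.31), with 9 on each side for AD_TG against SJL_B6. None was called. Pofut2, which adds fucose to secreted matrix proteins, stood at 7.10 ± 1.57 in AD_TG, 10.20 ± 0.67 in AD_B6 and 9.86 ± 0.16 in SJL_B6 (SD, n = 4; limma, adjusted p = 0.871 and 0.999 for AD_TG against AD_B6 and SJL_B6). Plod2, a collagen lysyl hydroxylase, stood at 8.10 ± 0.47 in AD_B6 against 1.49 ± 1.98 in SJL_B6 (adjusted p = 0.869). Serpinh1, the collagen chaperone, was the most abundant of the list, at 9.88 ± 0.94 in AD_TG, 10.18 ± 0.58 in AD_B6 and 9.31 ± 0.95 in SJL_B6.

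Of 22 proteases and inhibitors, 19 were tested, with 15 higher in AD_TG than in AD_B6 (median 0.37), 13 higher in AD_TG than in SJL_B6 (0.43) and 10 higher in AD_B6 than in SJL_B6 (0.01), and none was called. The most abundant were Timp2 and Timp3, inhibitors of matrix metalloproteinases, at 13.14 ± 0.55 and 12.58 ± 0.39, and the lysosomal protease gene Ctsb at 12.44 ± 0.40 (SD, n = 12). Plat, the tissue plasminogen activator, stood at 9.16 ± 0.96 in AD_B6 against 6.53 ± 2.31 in SJL_B6 (SD, n = 4; limma, adjusted p = 0.869).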

How the data were processed

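RNA was sequenced from 12 libraries, 4 in each of 3 groups. The authors deposited 1 table per library, whose header names the gene symbol and the library but no unit. The deposited values were taken as log2(x + 1), the form in which low values become whole multiples of 1 read; the scaling method is not given in the sources used here. The submitters' processing notes name Bowtie2, bedtools and the build hg19, although the symbols are mouse symbols, so no gene coordinates are given from the files. Of 23282 entries, 44 that repeat a symbol were left out (the entry of highest mean was kept), which left 23238 symbols; no gene described here by its own values was among the 35 repeated symbols.

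Estimated reads are the linear value divided by the worth of 1 read, which was found from the lowest values; 90.8 to 100% of linear values below 20 were whole within 0.15 of a read. A gene has reads at a linear value of 0.3 or more. Genes with a linear value of 10 or more in at least 4 libraries were tested (11955). Differences, 95% intervals and p-values came from limma 3.58.1 in R 4.3.3, with a variance trend, all 12 libraries in 1 fit and Benjamini-Hochberg adjustment at 0.05 over all genes tested. The fit was also run on values shuffled between libraries within each gene, with known changes added to some genes. The share of those changes that was called is not reported here, so the run does not show how readily a change would be called. Single genes also had an exact two-sided permutation test (scipy 1.17.1), whose smallest possible p for 4 against 4 is 0.0286. A single gene could therefore not pass after adjustment over the 30 tests, and its adjusted value decides nothing. Levels between genes were divided by coding length in GENCODE vM21; protein lengths, planned for this, were not used here.

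Other settings were a pseudocount of 10, other filters, centring, quantile normalization, no variance trend, a fit of the 2 groups compared, a replicate block and leaving out each library. The 10 genes, the gene lists and the marker lists were chosen with earlier results of these data known. Named from each list were the gene of smallest p in a comparison, the 3 of highest mean and genes listed at 0, and by likeness the gene of highest rho. All 10 lymphatic markers are given as well, a choice made after their values were seen. Some listed genes are not reported here.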

Additional observations from a re-analysis of the deposited data

Results flagged for a closer look

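In 5 of 30 groups of 4 values, 1 library stood far from the other libraries of its group (16.7%). Chance gives about 1 in 20 for normally distributed values, but over all genes tested 15.7% of groups held such a library, and 69.3% of those groups had a library without reads, so the share among the 10 genes was near that of all genes. Lama4 was 8.60 in SJL_B6 replicate 3 and 0 to 1.14 in the others of that group. Lamb1 was 0 in SJL_B6 replicate 2, where the others lay at 8.39 to 9.86. Nid1 was 6.33 in AD_B6 replicate 2 beside 9.64 to 10.08 in the rest of AD_B6, and 10.01 in SJL_B6 replicate 4 beside 9.06 to 9.15 in the rest of SJL_B6. Nid2 was 9.07 in SJL_B6 replicate 3, while the remaining libraries lay at 7.87 to 7.88. All are log2 values, and their causes were not tested.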

How the results depend on the processing

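Of the differences of the 10 genes under other settings, 258 could not move by construction (other filters, variance models and blocks, or a library left out of the group not compared). Of the 330 that could, 285 kept their direction and 45 reversed. None of all these passed the threshold (lowest adjusted p in limma, 0.696). Without the variance trend, limma called 10 genes for AD_TG against AD_B6 (10 higher, 0 lower), 2 for AD_TG against SJL_B6 and 10 for AD_B6 against SJL_B6 (3 higher, 7 lower), against 0 with it, and none of the 10 genes was among them. Centring moved the median of all genes to -0.22 (AD_TG against AD_B6), -0.08 (AD_TG against SJL_B6) and 0.16 (AD_B6 against SJL_B6), and the genes at an unadjusted p below 0.05 to 170 higher and 191 lower for AD_TG against SJL_B6, against 220 and 137, and to 419 higher and 286 lower for AD_B6 against SJL_B6, against 163 and 484. Quantile normalization gave 305 and 222 for AD_TG against AD_B6, against 519 and 120, and 240 and 351 for AD_B6 against SJL_B6. For AD_TG against AD_B6, centring reversed Lamb2 to -0.42, Nid2 to -0.12, Hspg2 to -0.53 and Agrn to -0.04, and quantile normalization reversed Lama2 to -0.43 and Nid2 to -0.91. For AD_TG against SJL_B6, centring reversed Agrn to -0.02. For AD_B6 against SJL_B6, centring reversed Nid1 to 0.13 and Agrn to 0.02, and a pseudocount of 10 reversed Lama2 to -0.11. The cause was not tested.

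Leaving out each library of the groups compared in turn reversed 35 of 240 differences. For AD_TG against AD_B6 the ranges were -0.79 to 1.93 (Lama2), -0.38 to 2.61 (Lama4), -0.31 to 3.53 (Lama5), -0.30 to 0.51 (Lamb2), -1.01 to 0.92 (Nid1), -0.80 to 1.27 (Nid2), -0.13 to 0.36 (Hspg2), 3.21 to 6.10 (Lamb1), -1.49 to -0.48 (Lamc1) and 0.04 to 0.91 (Agrn). For AD_TG against SJL_B6 they were -1.08 to 2.11 (Lama2), -0.99 to 2.81 (Lama5), -0.10 to 3.19 (Lamb1), -0.66 to 0.20 (Lamb2), -0.56 to 0.27 (Lamc1), -1.05 to 0.58 (Nid1), -0.07 to 0.36 (Agrn), 4.47 to 7.34 (Lama4), -2.02 to -0.77 (Nid2) and 0.31 to 0.79 (Hspg2). For AD_B6 against SJL_B6 they were -1.84 to 1.68 (Lama2), -2.38 to 0.98 (Lama5), -0.70 to 0.55 (Nid1), -0.77 to 0.10 (Agrn), 2.67 to 5.70 (Lama4), -4.74 to -1.04 (Lamb1), -0.86 to -0.01 (Lamb2), 0.34 to 1.35 (Lamc1), -2.69 to -0.63 (Nid2) and 0.32 to 0.65 (Hspg2). The replicate block called 0 genes in each comparison, with 685, 376 and 685 genes at an unadjusted p below 0.05; same-numbered libraries correlated at -0.015 to 0.067, so the numbers were not taken as pairs. The filter on reads in all libraries gave values for 6 of the 10 genes.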
